A study of Ovis aries with 6 samples.

Results

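The choroid plexus of thyroidectomised ewes was compared with that of all ewes that kept their thyroid, whatever day length those ewes were held in. All 6 RNA pools of the series entered the comparison: 2 pools from thyroidectomised ewes (THX) on one side, and on the other 2 pools from intact ewes in short days (Short) and 2 from intact ewes in long days (Long), each day length carrying equal weight. All 18019 of 33609 listed genes that passed a filter on low counts were tested. Each pool was an equimolar mix of RNA from 3 to 4 ewes, and the design text gives 8 ewes per intact group and 7 in the THX group (23 summed over the groups, against 24 stated in all). The thyroidectomised ewes were kept in long days, and no pool came from thyroidectomised ewes in short days. The difference reported for a gene is therefore its THX minus Long difference plus a weight of 0.5 on its Long minus Short difference. Breed, age, the interval after surgery and circulating hormone were not given in the sources used here.

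The choroid plexus is a sheet of ciliated epithelium over a vascular stroma inside the brain ventricles. It secretes cerebrospinal fluid, forms the barrier between blood and that fluid, and makes transthyretin, a carrier of thyroid hormone. Thyroid hormone acts mainly through nuclear receptors that sit on target genes. With hormone bound these receptors raise transcription at many targets, such as HR and KLF9, and without hormone they can recruit corepressors.

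Libraries from polyA RNA held 48282883 to 82100653 counts per pool. The pools of a group differed by more than counting error (chi-square per degree of freedom 15.8 to 70.1), and by that measure the THX pair was the least alike. THX pool 2 and Short pool 1 stood at opposite ends of the first principal component (29.4% of the variance) and THX pool 1 stood apart on the second (26.7%), so neither component separated the THX pools from the intact pools. Long pool 2 held red blood cell markers at 54.1 CPM, against 0.518 to 1.84 CPM in the other intact pools and 4.26 to 4.64 CPM in the THX pools. The tests of THX against intact and the medians of gene lists were also computed without each pool in turn. Summed marker levels and the tests of THX against a single day length were not. With 2 pools against 4, an exact permutation test of a single value cannot give a two-sided p below 0.133, so calls rest on edgeR's quasi-likelihood test, which shares information on spread across genes. What these p-values measure is how much whole pools vary, and variation from ewe to ewe is not seen. Throughout, an adjusted p is that test's p with Benjamini-Hochberg adjustment over all 18019 genes, and a gene is said to have risen, fallen or changed where it was below 0.05. Levels are CPM, a gene's share of a pool's counts, scaled by the trimmed mean of M values (TMM). Differences are log2 fold changes of THX against intact, given as the estimate ± SE, and mean levels are given ± SD (n = 2 THX and 4 intact pools).

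Thyroidectomy went with a change in 174 genes, 0.966% of those tested. In the THX pools 61 genes were higher (0.339%) and 113 were lower (0.627%). The decreases were also the larger: 42 of the 113 fell at least 2-fold, against 14 of the 61 that rose at least 2-fold, and the median size was 1.81-fold for decreases and 1.59-fold for increases. All 174 had both THX pools outside the range of the 4 intact pools, which was also true of 4006 of all tested genes (22.2%). The median difference over all tested genes was −0.0022, with 49.6% of them above 0. The number of changed genes depended strongly on single pools: the test called 10 genes without Long pool 2, 24 without Long pool 1, 52 or 71 without Short pools 1 or 2, and 122 or 69 without THX pools 1 or 2. In that order 10, 22, 50, 61, 74 and 46 of these were among the 174. The genes described below are therefore given with the fits they passed. All 174 kept their direction in every one of these fits. That was nearly fixed beforehand, since both THX pools of each lay outside the intact range.

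**Figure D1:**
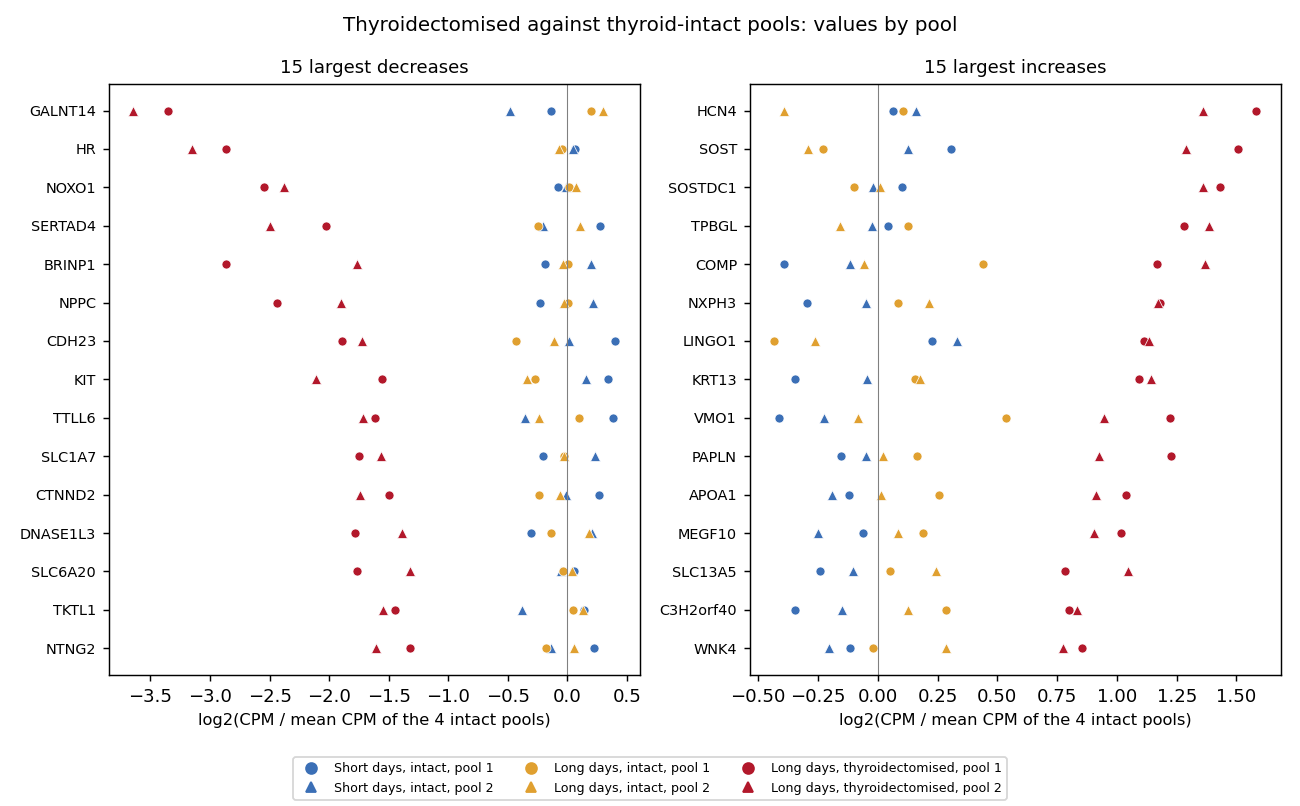
Level of the 15 largest decreases (left) and the 15 largest increases (right) in each of the 6 pools, with 1 point per pool, on a log2 axis as CPM over the mean of the 4 intact pools. For all of these genes both THX pools lie outside the intact pools, as for HR at 3.36 and 2.76 CPM against 23.4 to 25.6 CPM.

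The 10 genes that passed the test in all 6 fits that left out a pool were HR, KLF9, MLXIPL, GALNT14, NOXO1, CDH23, HTR2C, CPM, LINGO1 and LOC114115315. LINGO1 was higher in the THX pools and the other 9 were lower. They were picked out after their values were seen, and each is described with its role below except CPM, which here is the gene of carboxypeptidase M (−1.3 log2), and LOC114115315 (−2.14 log2), for which the reference table has no entry.

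Among classical targets of thyroid hormone, HR and KLF9 fell. HR encodes a nuclear corepressor that binds thyroid hormone receptors and is itself a direct target of the hormone. Its level was 25.6 and 25.3 CPM under short days, 23.7 and 23.4 CPM under long days, and 3.36 and 2.76 CPM after thyroidectomy. The 4 intact pools lay within a narrow band and both THX pools lay far below it (−3.0 ± 0.12 log2, adjusted p = 0.000665), an 8.0-fold decrease. HR held in all 6 leave-one-pool-out fits, with an adjusted p of at most 0.00589. KLF9 encodes a zinc finger transcription factor whose gene carries a thyroid hormone response element. It stood at 99.98 and 88.3 CPM under short days, 93.2 and 89.9 CPM under long days, and 36.1 and 34.1 CPM after thyroidectomy. Both THX pools were below every intact pool (−1.41 ± 0.0811 log2, adjusted p = 0.00299), and KLF9 held in all 6 leave-one-pool-out fits, with an adjusted p of at most 0.0288.

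Most other genes known to respond to thyroid hormone did not pass the test. Of 38 tested members, 1 rose and 4 fell. Over all tested genes 0.339% rose and 0.627% fell, which is the background for every list count below. The median difference of the list was −0.2 against −0.0022 over all genes. Besides HR and KLF9, the decreases were ACACB and HIF1A. HIF1A encodes the oxygen-regulated transcription factor subunit and fell to 58.8 ± 2.11 CPM against 81 ± 8.24 CPM with the thyroid intact (−0.46 log2, adjusted p = 0.0482), and it was called in 0 of 6 leave-one-pool-out fits, with adjusted p-values between 0.0717 and 0.196. The increase was HCN4, a pacemaker channel, which went against the direction of HR and KLF9. HCN4 measured 2.27 and 2.43 CPM under short days, 2.34 and 1.66 CPM under long days, and 6.51 and 5.57 CPM after thyroidectomy, with both THX pools above all intact pools, which overlapped between day lengths (1.48 ± 0.186 log2, adjusted p = 0.0251). It was called in 0 of 6 leave-one-pool-out fits, with adjusted p-values between 0.0634 and 0.0909.

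Of 14 tested carriers, transporters and deiodinases of the hormone none passed the test, and of 20 receptors, partner receptors and coregulators HR did. With 0.966% of all genes called, a list this short would hold a called gene only rarely, so these counts say little. Both THX pools lay above all intact pools for 4 of the 14 and 4 of the 20, and below them for 1 of the 14 and 1 of the 20, against 11% and 11.3% of all tested genes. THRA, the gene of the receptor TRα, stood at 175 and 189 CPM under short days, 197 and 191 CPM under long days, and 224 and 235 CPM after thyroidectomy (0.29 ± 0.0642 log2, adjusted p = 0.105). THRB, the gene of TRβ, stood at 24.9 and 19.6 CPM under short days, 13.4 and 13.5 CPM under long days, and 16.6 and 12.4 CPM after thyroidectomy (−0.26 ± 0.152 log2, adjusted p = 0.45). The sign of its difference turned to 0.11 against the Long pools alone. DIO2, the deiodinase that makes active hormone, averaged 4.77 ± 0.679 CPM in the intact pools and 4.18 ± 0.0343 CPM in the THX pools (−0.19 log2, adjusted p = 0.626). DIO1 also did not pass (0.012 log2, adjusted p = 0.993) and its sign depended on the setting. DIO3, the inactivating deiodinase, did not pass the filter on low counts. TTR, the transthyretin gene, was read at 86397 and 92709 CPM under short days, 107610 and 109230 CPM under long days, and 118870 and 140710 CPM after thyroidectomy. Both THX pools were above every intact pool, but TTR did not pass the test (0.4 ± 0.0811 log2, adjusted p = 0.0913).

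MLXIPL and a few genes of fuel use fell. MLXIPL encodes ChREBP, a transcription factor that responds to glucose metabolites and drives glycolytic and lipogenic genes. It measured 128 and 109.9 CPM under short days, 119 and 120.3 CPM under long days, and 42.7 and 47.9 CPM after thyroidectomy, with the intact pools close together and both THX pools well below (−1.4 ± 0.0918 log2, adjusted p = 0.00347). It held in all 6 leave-one-pool-out fits, with an adjusted p of at most 0.0379. Of 46 tested genes of fatty acid synthesis and oxidation, MLXIPL, ACACB and OXCT1 fell and none rose, with a median of −0.1. ACACB, the acetyl-CoA carboxylase that restrains fatty acid entry into mitochondria, fell to 19.99 ± 3.09 CPM against 35.8 ± 3.43 CPM with the thyroid intact (−0.84 ± 0.121 log2, adjusted p = 0.0385) and was called in 1 of 6 leave-one-pool-out fits, with adjusted p-values between 0.0445 and 0.144. OXCT1, the rate-limiting enzyme of ketone body use, was at 294 and 269 CPM under short days, 263 and 258 CPM under long days, and 169.9 and 157 CPM after thyroidectomy. Every intact pool exceeded both THX pools (−0.73 ± 0.0714 log2, adjusted p = 0.0124), and OXCT1 was lost on removal of Long pool 1 (then 0.068) and of Long pool 2 (then 0.0726).

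In glycolysis and the pentose phosphate pathway, 2 of 30 tested genes fell and none rose. PFKP encodes the platelet type of phosphofructokinase, the committing enzyme of glycolysis. It fell to 165 ± 33.4 CPM against 401 ± 49.2 CPM with the thyroid intact (−1.28 ± 0.132 log2, adjusted p = 0.0129) and was lost on removal of Long pool 1 (then 0.0522) and of Long pool 2 (then 0.0726). TKTL1, a transketolase-like protein, fell to 15.6 ± 0.748 CPM against 44 ± 6.88 CPM with the thyroid intact (−1.5 ± 0.15 log2, adjusted p = 0.0124) and was called in 3 of 6 leave-one-pool-out fits, with adjusted p-values between 0.00486 and 0.0726. The median of this list was 0.035, and its sign turned when some single pools were left out.

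The largest decrease among genes with a mean of at least 2 CPM was in GALNT14, an enzyme that starts mucin-type O-glycans by adding N-acetylgalactosamine to proteins. It measured 6.68 and 5.28 CPM under short days, 8.42 and 9.03 CPM under long days, and 0.722 and 0.587 CPM after thyroidectomy. The THX pools held about as little as each other and every intact pool held several times more (−3.47 ± 0.207 log2, adjusted p = 0.00299), an 11-fold decrease. GALNT14 held in all 6 leave-one-pool-out fits, with an adjusted p of at most 0.0288. Of 16 tested enzymes of this family GALNT15 rose, to 12 ± 0.159 CPM against 7.09 ± 0.745 CPM with the thyroid intact (0.77 ± 0.121 log2, adjusted p = 0.0476), though it was called in 0 of 6 leave-one-pool-out fits, with adjusted p-values between 0.0808 and 0.178. NOXO1 organises the NADPH oxidase NOX1 at membranes. It stood at 6.62 and 6.95 CPM under short days, 7.05 and 7.34 CPM under long days, and 1.2 and 1.34 CPM after thyroidectomy, without overlap between the THX and intact pools (−2.46 ± 0.158 log2, adjusted p = 0.00347). NOXO1 held in all 6 leave-one-pool-out fits, with an adjusted p of at most 0.0379.

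Of 30 tested amino acid transporters 3 fell and none rose, with a median of −0.027. Over all tested genes 0.627% fell and 0.339% rose. SLC6A20 carries proline and other imino acids into epithelial cells. Its values were 136 and 126 CPM under short days, 127 and 134 CPM under long days, and 38.5 and 52.4 CPM after thyroidectomy. The Short and Long pools held nearly the same level and both THX pools lay below them (−1.53 ± 0.13 log2, adjusted p = 0.00907). SLC6A20 was lost on removal of Long pool 2 (then 0.0563). SLC1A7, a glutamate transporter with a large chloride conductance, was at 31.5 and 42.5 CPM under short days, 35.4 and 35.5 CPM under long days, and 10.8 and 12.2 CPM after thyroidectomy, again with both THX pools the lowest (−1.65 ± 0.139 log2, adjusted p = 0.00907), and it was lost on removal of Long pool 2 (then 0.0563). SLC6A15, a carrier of branched neutral amino acids, fell to 4.65 ± 0.0409 CPM against 7.95 ± 1.34 CPM with the thyroid intact (−0.76 ± 0.123 log2, adjusted p = 0.0496) but was called in 0 of 6 leave-one-pool-out fits, with adjusted p-values between 0.084 and 0.19.

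Ion and water transport genes changed in both directions. Of 43 tested genes in the list ATP1B2, STK39 and WNK4 rose and AQP5, CAB39L and SGK1 fell, with a median of −0.2. Outside the list, the ion channel gene HCN4 rose, as described above. KCNK3, SLC8A1 and SLC24A3, ion channel and exchanger genes named after their values were seen, fell (−1.23, −0.71 and −0.7 log2). AQP5 is a water channel of secretory epithelia. Its levels were 23.5 and 24 CPM under short days, 25.1 and 24.5 CPM under long days, and 11.2 and 13.3 CPM after thyroidectomy. Both THX pools were below all intact pools (−0.98 ± 0.099 log2, adjusted p = 0.0124), and it was lost on removal of Long pool 1 (then 0.068) and of Long pool 2 (then 0.0726). SGK1 encodes a kinase that raises sodium transport and is induced by corticosteroids. It fell to 278 ± 23 CPM against 493 ± 20.8 CPM with the thyroid intact (−0.82 ± 0.0794 log2, adjusted p = 0.0124) and was lost on removal of Long pool 1 (then 0.0634) and of Long pool 2 (then 0.0726).

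Members of 1 kinase pathway moved in different directions. WNK kinases activate SPAK, the product of STK39, which phosphorylates cation-chloride cotransporters, and CAB39L encodes a scaffold that activates SPAK. WNK4 measured 42 and 39.5 CPM under short days, 44.9 and 55.4 CPM under long days, and 82.3 and 77.9 CPM after thyroidectomy and was higher in both THX pools than in any intact pool (0.82 ± 0.0936 log2, adjusted p = 0.0173). STK39 rose to 219 ± 27.6 CPM against 146 ± 6.03 CPM with the thyroid intact (0.59 ± 0.086 log2, adjusted p = 0.0396) and was called in 1 of 6 leave-one-pool-out fits, with adjusted p-values between 0.0286 and 0.168. CAB39L measured 529.9 and 513 CPM under short days, 466 and 452 CPM under long days, and 301 and 290.2 CPM after thyroidectomy, with both THX pools the lowest (−0.73 ± 0.0637 log2, adjusted p = 0.00907). WNK4 was called in 0 of 6 leave-one-pool-out fits, with adjusted p-values between 0.0555 and 0.0634 and CAB39L was lost on removal of Long pool 1 (then 0.0634) and of Long pool 2 (then 0.0726). ATP1B2, a beta subunit of the sodium pump, rose to 381 ± 12.2 CPM against 283 ± 6.82 CPM with the thyroid intact (0.43 ± 0.0602 log2, adjusted p = 0.0374) and was called in 0 of 6 leave-one-pool-out fits, with adjusted p-values between 0.0524 and 0.189.

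Among 39 tested carriers of sugars, monocarboxylates, vitamins and organic ions in the list 1 rose and 1 fell. SLC2A5, a fructose carrier outside the list and named after its values were seen, also fell (−1.37 ± 0.172 log2, adjusted p = 0.0251). SLC13A5, a sodium-coupled citrate carrier, rose to 9.16 ± 1.17 CPM against 4.83 ± 0.703 CPM with the thyroid intact (0.93 ± 0.142 log2, adjusted p = 0.0433) and was called in 0 of 6 leave-one-pool-out fits, with adjusted p-values between 0.060 and 0.178. SLC16A9, of the monocarboxylate carrier family, fell to 14.4 ± 0.415 CPM against 22.7 ± 2.44 CPM with the thyroid intact (−0.65 ± 0.0998 log2, adjusted p = 0.0433) and was called in 0 of 6 leave-one-pool-out fits, with adjusted p-values between 0.0768 and 0.17. SLC4A8, a sodium-driven chloride and bicarbonate exchanger outside these lists, fell to 22.1 ± 0.116 CPM against 34.4 ± 6.69 CPM with the thyroid intact (−0.62 log2, adjusted p = 0.0384) and was called in 0 of 6 leave-one-pool-out fits, with adjusted p-values between 0.068 and 0.144.

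Of 32 tested markers of choroid plexus epithelium 2 rose (IGFBP2 and SOSTDC1) and 3 fell (CAB39L, HTR2C and KL), with a median of −0.046. HTR2C, the serotonin 2C receptor for which this epithelium is a dense site, measured 70.4 and 69.4 CPM under short days, 44.4 and 44.1 CPM under long days, and 27.2 and 26.1 CPM after thyroidectomy. The 4 intact pools were all above the THX pools, and within them the Short pools were above the Long pools (−1.06 ± 0.0649 log2, adjusted p = 0.00299). HTR2C held in all 6 leave-one-pool-out fits, with an adjusted p of at most 0.0391. KL encodes klotho, a coreceptor for FGF23 that is shed into cerebrospinal fluid. It fell to 661 ± 75.4 CPM against 1062 ± 167 CPM with the thyroid intact (−0.67 ± 0.103 log2, adjusted p = 0.0433) and was called in 1 of 6 leave-one-pool-out fits, with adjusted p-values between 0.0496 and 0.166.

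SOST, SOSTDC1 and SFRP5, secreted inhibitors of Wnt signalling, rose. Of 34 tested secreted Wnt and BMP modulators 3 rose and none fell, although the median of the list was 0.034 and its sign turned when some single pools were left out. SOST encodes sclerostin, which blocks the Wnt coreceptors LRP5 and LRP6. Its levels were 7.92 and 7.01 CPM under short days, 5.48 and 5.24 CPM under long days, and 18.2 and 15.7 CPM after thyroidectomy. Both THX pools stood above every intact pool (1.42 ± 0.118 log2, adjusted p = 0.00907), and SOST was lost on removal of Long pool 2 (then 0.0583). SOSTDC1, a sclerostin relative that also binds BMPs, was at 2.68 and 2.47 CPM under short days, 2.34 and 2.52 CPM under long days, and 6.76 and 6.43 CPM after thyroidectomy. The 4 intact pools lay close together and both THX pools lay above them (1.4 ± 0.143 log2, adjusted p = 0.0124), and SOSTDC1 was called in 3 of 6 leave-one-pool-out fits, with adjusted p-values between 0.0393 and 0.0744. SFRP5, a decoy for Wnt ligands, rose to 852 ± 1.85 CPM against 609.5 ± 53.3 CPM with the thyroid intact (0.49 ± 0.0652 log2, adjusted p = 0.0324) and was called in 0 of 6 leave-one-pool-out fits, with adjusted p-values between 0.0592 and 0.164.

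APOA1, IGFBP2, CST3 and CP, which encode secreted proteins, rose. APOA1, the main protein of high density lipoprotein, measured 1861 and 1769 CPM under short days, 2409 and 2041 CPM under long days, and 4151 and 3802 CPM after thyroidectomy, with both THX pools above all intact pools (0.98 ± 0.0862 log2, adjusted p = 0.00907). It was the 1 changed gene of 17 tested apolipoproteins and lipid carriers, and it was lost on removal of Long pool 2 (then 0.0656). IGFBP2, a binding protein of insulin-like growth factors and a major product of this epithelium, measured 1246 and 1334 CPM under short days, 1731 and 1726 CPM under long days, and 2321 and 2889 CPM after thyroidectomy and was higher in both THX pools (0.8 ± 0.0951 log2, adjusted p = 0.0204), but it was called in 2 of 6 leave-one-pool-out fits, with adjusted p-values between 0.0148 and 0.117. CST3, the secreted protease inhibitor cystatin C, rose to 3514 ± 163 CPM against 2433 ± 259 CPM with the thyroid intact (0.54 ± 0.0648 log2, adjusted p = 0.0226) and was called in 1 of 6 leave-one-pool-out fits, with adjusted p-values between 0.0368 and 0.163. CP, the copper-carrying ferroxidase ceruloplasmin, rose to 82.8 ± 8.95 CPM against 50.1 ± 8.85 CPM with the thyroid intact (0.74 ± 0.101 log2, adjusted p = 0.0344) and was called in 1 of 6 leave-one-pool-out fits, with adjusted p-values between 0.0449 and 0.107.

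C3H2orf40 is the sheep name for the gene of augurin, a small secreted peptide precursor of the choroid plexus. It stood at 827 and 945 CPM under short days, 1280 and 1147 CPM under long days, and 1829 and 1870 CPM after thyroidectomy. Both THX pools exceeded all intact pools (0.83 ± 0.0815 log2, adjusted p = 0.0124), and it was lost on removal of Long pool 1 (then 0.0634) and of Long pool 2 (then 0.0762). CFB, complement factor B, rose to 1081 ± 25 CPM against 762 ± 58.6 CPM with the thyroid intact (0.51 log2, adjusted p = 0.0385) and was called in 0 of 6 leave-one-pool-out fits, with adjusted p-values between 0.0589 and 0.18. GSN, the actin-severing protein gelsolin, which also has a secreted form, rose to 708 ± 30.5 CPM against 491 ± 109.6 CPM with the thyroid intact (0.55 log2, adjusted p = 0.0433) and was called in 0 of 6 leave-one-pool-out fits, with adjusted p-values between 0.0799 and 0.155.

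CHGA and NPPC fell. Of 30 tested granins, peptide hormones and processing enzymes these 2 fell and none rose. CHGA encodes chromogranin A, a protein of dense-core secretory granules. It was at 5955 and 6413 CPM under short days, 6745 and 6955 CPM under long days, and 3622 and 3568 CPM after thyroidectomy, and both THX pools were the lowest (−0.86 ± 0.0681 log2, adjusted p = 0.00798). CHGA was lost on removal of Long pool 1 (then 0.0634) and of Long pool 2 (then 0.0726). NPPC, the precursor of C-type natriuretic peptide, was at 5.62 and 7.65 CPM under short days, 6.62 and 6.46 CPM under long days, and 1.21 and 1.76 CPM after thyroidectomy. The Short and Long pools overlapped and the THX pools lay below both (−2.14 ± 0.231 log2, adjusted p = 0.0139), and NPPC was lost on removal of Long pool 1 (then 0.068) and of Long pool 2 (then 0.0726).

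Of 39 tested growth factors and binding proteins IGFBP2 rose and KL and TGFA fell. TGFA, a ligand of the EGF receptor, fell to 22.6 ± 1.59 CPM against 41.9 ± 8.4 CPM with the thyroid intact (−0.88 ± 0.126 log2, adjusted p = 0.0385) and was called in 2 of 6 leave-one-pool-out fits, with adjusted p-values between 0.0221 and 0.14. C1QTNF1, a secreted relative of adiponectin, was at 76.4 and 70.2 CPM under short days, 69.1 and 78.1 CPM under long days, and 42.6 and 39.4 CPM after thyroidectomy, without overlap of the THX and intact pools (−0.84 ± 0.0849 log2, adjusted p = 0.0124), and it was lost on removal of Long pool 2 (then 0.0726) and of THX pool 2 (then 0.0555).

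CSAD, PYCR1 and PRODH, enzymes of taurine and proline metabolism, rose. Of 28 tested genes of taurine, proline and serine synthesis and of ATF4 targets these 3 rose and none fell, with a median of 0.12. CSAD makes hypotaurine, the precursor of taurine. Its levels were 341 and 332 CPM under short days, 344 and 347 CPM under long days, and 512 and 511 CPM after thyroidectomy, with both THX pools above all intact pools (0.58 ± 0.0578 log2, adjusted p = 0.0124), and it was lost on removal of Long pool 1 (then 0.0973) and of Long pool 2 (then 0.0938). PYCR1, the last enzyme of proline synthesis, rose to 28.7 ± 0.441 CPM against 17.9 ± 0.521 CPM with the thyroid intact (0.68 ± 0.073 log2, adjusted p = 0.0138) and was called in 1 of 6 leave-one-pool-out fits, with adjusted p-values between 0.0445 and 0.0938. PRODH, the first enzyme of proline breakdown, rose to 1193 ± 102 CPM against 826 ± 67 CPM with the thyroid intact (0.53 ± 0.0725 log2, adjusted p = 0.0344) and was called in 1 of 6 leave-one-pool-out fits, with adjusted p-values between 0.0352 and 0.178. DEGS2, a desaturase and hydroxylase of ceramide synthesis, rose to 84.4 ± 1.12 CPM against 54.3 ± 2.02 CPM with the thyroid intact (0.64 log2, adjusted p = 0.0124) and was called in 3 of 6 leave-one-pool-out fits, with adjusted p-values between 0.0371 and 0.0765.

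CDH23, CTNND2 and NTNG2 fell and LINGO1 and MEGF10 rose, and none of these 5 belongs to a list used here. CDH23, the cadherin of stereociliary tip links, measured 48.4 and 37 CPM under short days, 27.1 and 33.9 CPM under long days, and 9.89 and 11.1 CPM after thyroidectomy, and the THX pools did not overlap the intact pools (−1.78 ± 0.154 log2, adjusted p = 0.00907). CDH23 held in all 6 leave-one-pool-out fits, with an adjusted p of at most 0.0456. CTNND2, delta-catenin, fell to 5.74 ± 0.676 CPM against 17.6 ± 2.58 CPM with the thyroid intact (−1.61 ± 0.142 log2, adjusted p = 0.00907) and was lost on removal of Long pool 2 (then 0.0563). LINGO1, a leucine-rich repeat protein of the Nogo receptor complex, measured 14.5 and 15.6 CPM under short days, 9.15 and 10.3 CPM under long days, and 26.8 and 27.2 CPM after thyroidectomy for the identifier 101117451, and both THX pools were the highest (1.16 ± 0.0896 log2, adjusted p = 0.00798). LINGO1 held in all 6 leave-one-pool-out fits, with an adjusted p of at most 0.0456. NTNG2, the axon guidance protein netrin-G2, fell to 5.03 ± 0.702 CPM against 13.8 ± 1.82 CPM with the thyroid intact (−1.46 log2, adjusted p = 0.0176) and was called in 3 of 6 leave-one-pool-out fits, with adjusted p-values between 0.0285 and 0.0765. MEGF10, an engulfment receptor, rose to 11.8 ± 0.657 CPM against 6.07 ± 0.789 CPM with the thyroid intact (0.97 log2, adjusted p = 0.0251) and was called in 0 of 6 leave-one-pool-out fits, with adjusted p-values between 0.0623 and 0.123.

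KIT, the stem cell factor receptor that mast cells and several other cell types carry, was at 57.4 and 50.3 CPM under short days, 37.6 and 35.7 CPM under long days, and 15.4 and 10.5 CPM after thyroidectomy. Both THX pools were below all intact pools (−1.78 ± 0.162 log2, adjusted p = 0.0108), and KIT was lost on removal of Long pool 2 (then 0.0563). It was the 1 changed gene of the granulocyte and mast cell list. SOX4, a transcription factor of progenitor cells, fell to 5.82 ± 0.267 CPM against 9.91 ± 0.193 CPM with the thyroid intact (−0.77 log2, adjusted p = 0.0433) and was called in 0 of 6 leave-one-pool-out fits, with adjusted p-values between 0.0802 and 0.175. ARNTL, the clock gene that encodes BMAL1, rose to 29.8 ± 3.75 CPM against 19.1 ± 1.02 CPM with the thyroid intact (0.64 log2, adjusted p = 0.0473) and was called in 0 of 6 leave-one-pool-out fits, with adjusted p-values between 0.0538 and 0.178, and no other tested clock gene changed.

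The other largest decreases were SERTAD4 (−2.24), BRINP1 (−2.2), TTLL6, a tubulin polyglutamylase (−1.66), and DNASE1L3, a secreted nuclease (−1.56), all as log2 differences. SERTAD4 was lost on removal of Long pool 2 (then 0.0583), and the other 3 passed in 2, 1 and 0 of the 6 fits. The other largest increases were TPBGL (1.33), COMP, a cartilage matrix protein (1.29), NXPH3, a neurexin ligand (1.19), KRT13, a keratin (1.13), VMO1 (1.12) and PAPLN, the matrix protein papilin (1.09). These 6 passed in 2, 0, 0, 0, 1 and 1 of the 6 fits, so these rested more on single pools than HR or GALNT14 did.

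Changed genes of low level were NXNL1, CDCP2, ARR3 and LOC101105114, each with a mean under 2 CPM. They are named after their values were seen. NXNL1, a thioredoxin-like survival factor of photoreceptors, had 49, 35, 44 and 52 raw counts in the intact pools and 0 and 1 after thyroidectomy. CDCP2 had 32, 21, 34 and 22 raw counts in the intact pools and 1 and 0 in the THX pools. ARR3, cone arrestin, had 135, 97, 61 and 102 raw counts in the intact pools and 8 and 11 after thyroidectomy. All THX counts of these 3 genes lay below all intact counts. NXNL1 passed in 4, CDCP2 in 0, ARR3 in 3 and LOC101105114 in 2 of the 6 leave-one-pool-out fits.

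**Figure D2:**
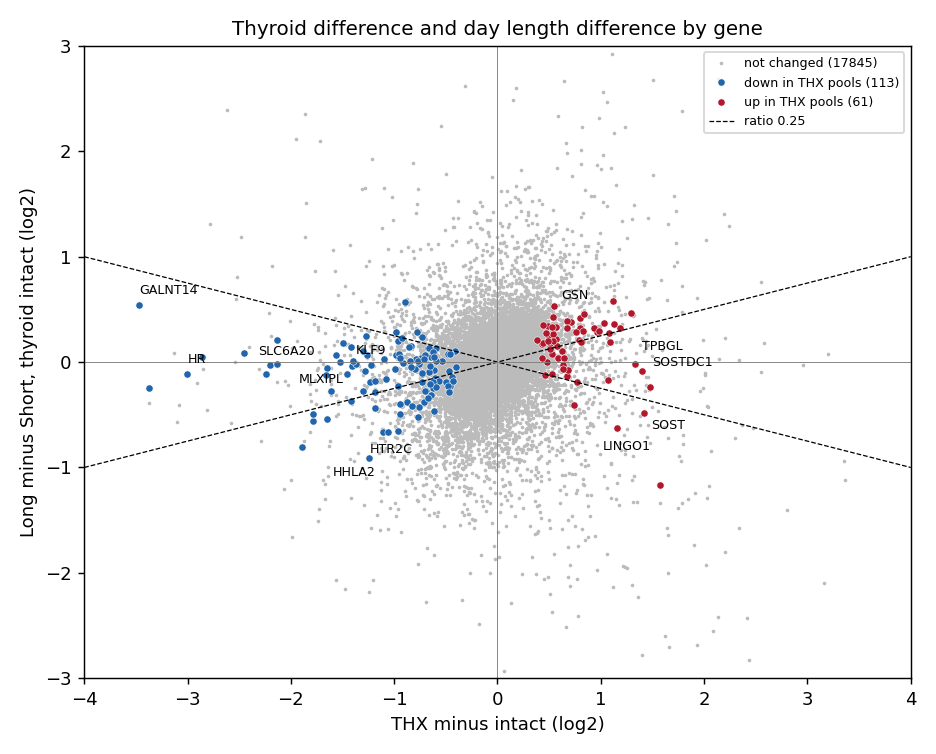
Thyroid difference (THX minus intact, horizontal axis, log2) against day length difference (Long minus Short, vertical axis, log2), with 1 point per tested gene, the 113 decreases in blue, the 61 increases in red, and dashed lines at a ratio of 0.25. HR and GALNT14 lie between the dashed lines at the far left and GSN lies well outside them; 30 genes that did not change and 2 that did lie beyond the axes, and both axes share the intact pools, so no slope should be read from the plot.

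The next question was which of these genes stood at 1 level in both day lengths. For each gene the size of its Long minus Short difference was divided by the size of its THX minus intact difference. Of the 174 changed genes 89 (51.1%) had a ratio below 0.25 and were called even, the other 85 lay between 0.25 and 1, and 0 reached 1. Over all 18019 genes 2346 (13%) were even. The call itself selects for a large denominator, so the share is given as a description. The median size of the Long minus Short difference itself was 0.19 for the changed genes and 0.17 for all tested genes. An unadjusted p below 0.05 for Long against Short was found for 55 of the 174 (31.6%), against 13.8% of all tested genes, with the intact pools shared by both contrasts. Without each pool in turn, 80 to 104 of the 174 were even. Even genes made up 71 of the 113 decreases (62.8%) and 18 of the 61 increases (29.5%). Both parts of the ratio differed between these directions. The median size of the THX minus intact difference was 0.86 for decreases and 0.67 for increases, and that of the Long minus Short difference was 0.15 and 0.23. None of the 18019 genes passed for Long against Short with edgeR (0%), where 2486 had an unadjusted p below 0.05, and DESeq2 called 159, 15 of them among the 174, and limma-voom 0. The 95% interval of the Long minus Short difference lay within 0.5 either side of 0 on the log2 scale for 94 of the 174, while for the other 80 a day length difference of that size lay inside the interval.

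Among changed genes with a symbol and a mean of at least 2 CPM, the 5 most even decreases were SLC6A20, C1QTNF1, MLXIPL, NPPC and SOX4. SLC6A20 differed by −0.0022 (95% interval −0.33 to 0.33) between Long and Short, and by −1.53 and −1.53 for THX against Long and against Short. MLXIPL differed by 0.01 (95% interval −0.22 to 0.24) between day lengths, against −1.4 and −1.39 for THX against each. NPPC differed by −0.018 (95% interval −0.57 to 0.54), against −2.13 and −2.15. These 3 genes therefore stood at a like distance below both kinds of intact pool, although the NPPC interval is the widest. HR differed by −0.11 (95% interval −0.38 to 0.16) between day lengths and KLF9 by −0.04 (95% interval −0.25 to 0.17).

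TPBGL, DEGS2, SOSTDC1 and CSAD were among the most even increases. SOSTDC1 differed by −0.087 (95% interval −0.5 to 0.33) between Long and Short, against 1.44 for THX against Long and 1.35 against Short. CSAD differed by 0.039 (95% interval −0.12 to 0.2), against 0.56 and 0.6.

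Within the same limits, the 5 genes with the largest ratio were GSN, TMEM59L, SUSD4, SLC4A8 and HHLA2. TMEM59L, SUSD4 and HHLA2 passed in 1, 0 and 1 of the 6 leave-one-pool-out fits. GSN measured 383 and 420.4 CPM under short days, 622 and 538 CPM under long days, and 729 and 686 CPM after thyroidectomy. The Long pools lay between the Short and THX pools, with 0.53 (95% interval 0.3 to 0.76) for Long minus Short, 0.29 for THX against Long and 0.82 for THX against Short. HTR2C, although it passed without every single pool, differed by −0.66 (95% interval −0.83 to −0.49) between day lengths, against −0.73 and −1.39 for THX against each. The day length differences of GSN and HTR2C did not pass after adjustment (edgeR adjusted p = 0.342 and 0.342). HCN4 differed by −0.23 (95% interval −0.78 to 0.31), against 1.6 and 1.36. Since THX ewes were seen in long days alone, whether such genes would stand at the same level in thyroidectomised ewes in short days was not tested.

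Set against the Long pools alone, which share their day length, the THX pools differed in 51 genes (0.283%), and set against the Short pools alone in 165 (0.916%). These comparisons share the THX pools. GALNT14, HR and KLF9 had adjusted p-values of 0.00385, 0.000835 and 0.0053 against Long and 0.00553, 0.0011 and 0.00437 against Short (edgeR). All 51 genes called against Long were among the 174 changed genes, as were 137 of the 165 called against Short. Most of the 174 therefore did not pass against the pools that share the THX day length. All 174 kept their direction there, which was nearly fixed by their separation from every intact pool. For IGFBP2 the adjusted p was 0.15 against Long and 0.0237 against Short. Against Long it was 0.435 for GSN, 0.265 for SLC4A8, 0.236 for HIF1A, 0.222 for KL and 0.196 for LOX.

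**Figure D3:**
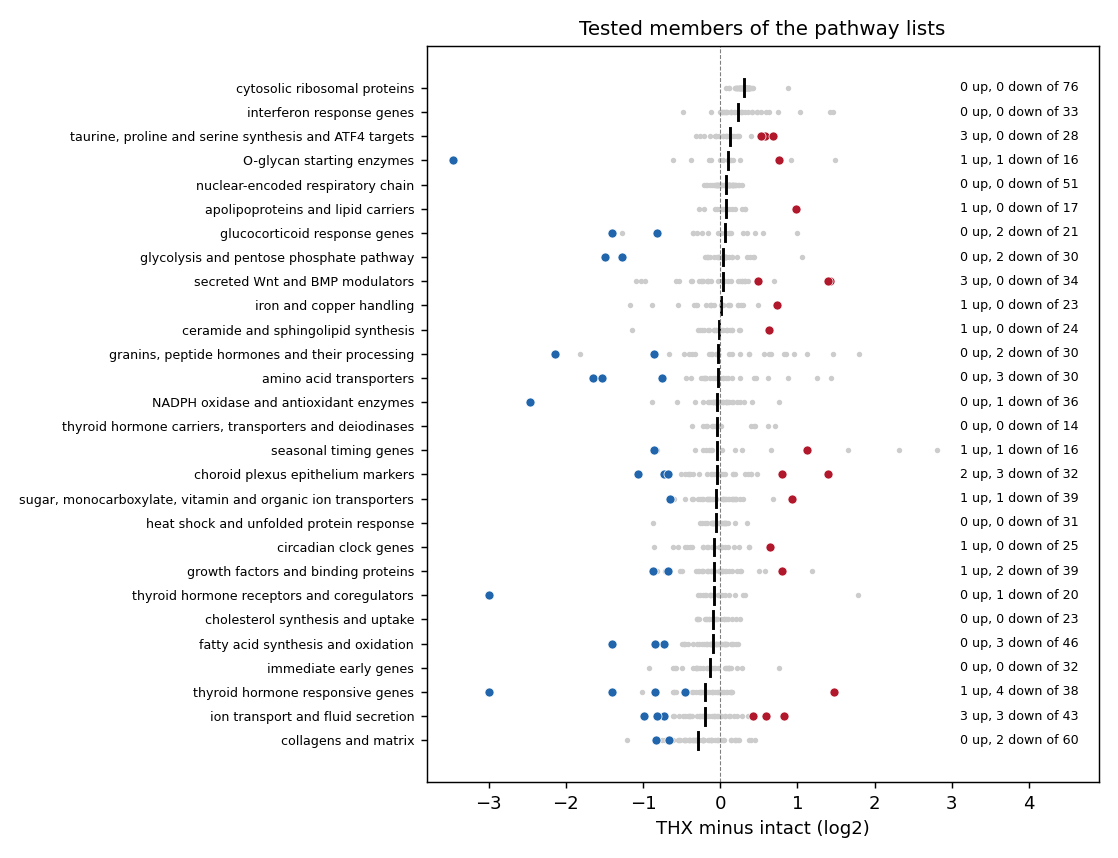
THX minus intact log2 difference of each tested member of the 28 pathway lists, with 1 point per gene, changed genes in blue (lower) or red (higher), the black bar at the list's median and the dashed line at the median of all tested genes. Changed genes are few in every list, and the ribosomal protein list has the median farthest above 0 at 0.31 with 0 changed members.

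In broad gene groups the median differences were small. None of 76 tested cytosolic ribosomal protein genes passed the test, although 76 of 76 had a difference above 0 and 26 had both THX pools above all intact pools, which holds for 1976 of all tested genes (11%). Their median was 0.31, and 0.19 to 0.43 without each pool in turn. The same list had a median Long minus Short difference of 0.35. Of 60 tested collagens and matrix genes LUM and LOX fell and none rose, 47 were below 0, 22 had both THX pools below all intact pools (2030 or 11.3% of all tested genes), and the median was −0.28 (−0.32 to −0.23 without each pool). LUM, the small collagen-binding proteoglycan lumican, measured 82.5 and 82.8 CPM under short days, 86 and 95.3 CPM under long days, and 52.1 and 56.7 CPM after thyroidectomy, with both THX pools the lowest (−0.67 ± 0.0759 log2, adjusted p = 0.0173). LUM was called in 1 of 6 leave-one-pool-out fits, with adjusted p-values between 0.0446 and 0.0838. LOX, whose product crosslinks collagen, fell to 7.65 ± 0.979 CPM against 13.7 ± 2.31 CPM with the thyroid intact (−0.83 ± 0.119 log2, adjusted p = 0.0384) and was called in 1 of 6 leave-one-pool-out fits, with adjusted p-values between 0.0455 and 0.15. ECM2, a matrix protein outside that list, fell to 263 ± 1.72 CPM against 401 ± 36.7 CPM with the thyroid intact (−0.6 log2, adjusted p = 0.0324) and was called in 1 of 6 leave-one-pool-out fits, with adjusted p-values between 0.0349 and 0.144. COMP and PAPLN, matrix genes named above that are also outside that list, rose (1.29 and 1.09 log2). No gene changed among 23 tested genes of cholesterol synthesis and uptake, 51 of the nuclear-encoded respiratory chain, 31 of heat shock and the unfolded protein response, 32 immediate early genes and 33 interferon response genes. The interferon list had a median of 0.23, and 0.003 without THX pool 1.

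**Figure D4:**
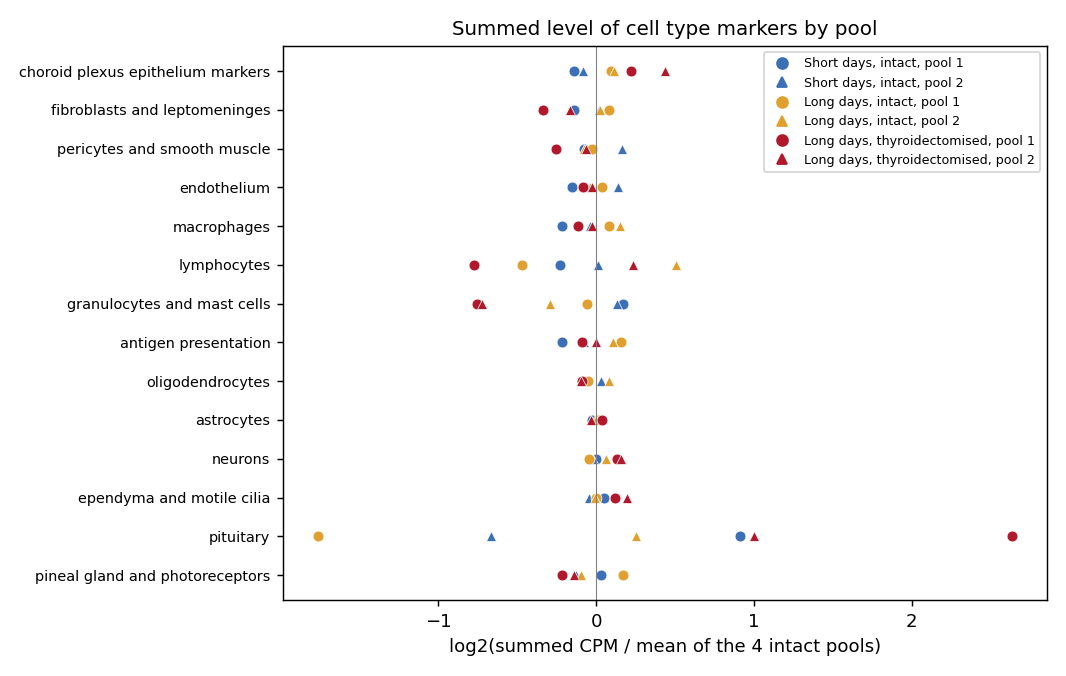
Summed CPM of the markers of each cell type in each pool, over the mean of the 4 intact pools, on a log2 axis, with 1 point per pool; the red blood cell list, with 1 tested gene, is not drawn. The pituitary list spreads the most, from 35.4 to 744 CPM, while the granulocyte and mast cell list lies lower in both THX pools.

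Marker levels of the cell types in the tissue moved with the groups to different extents. In bulk RNA, fewer cells of a type and less RNA per cell cannot be told apart. Of 33 listed markers of choroid plexus epithelium, 32 passed the filter on low counts. So did 18 of 18 endothelium and 15 of 15 macrophage markers, so passing it does not identify the tissue. Summed markers of choroid plexus epithelium were 109270 to 130440 CPM in the intact pools and 140750 to 162980 CPM in the THX pools. That gap came with TTR, since without it the sums overlapped at 21108 to 22871 and 21879 to 22278 CPM. Fibroblast markers summed to 1637 to 1908 CPM in the intact pools and 1431 to 1606 CPM in the THX pools, and LUM is 1 of them. The part of the fibroblast level in the lower matrix genes was not tested. Granulocyte and mast cell markers summed to 68.5 to 94.3 CPM against 49.6 to 50.7 CPM, but without KIT they overlapped at 32.8 to 42.9 and 34.2 to 40.2 CPM. Markers of ependyma and motile cilia summed to 2048 to 2195 CPM in the intact pools and 2295 to 2420 CPM in the THX pools, with no member changed.

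Pituitary markers were present in every pool, and their sum was highest in the THX pools, at 240 to 744 CPM against 35.4 to 226 CPM. PRL, the prolactin gene, accounted for most of this, with 588 and 201 CPM in the THX pools and 19.3 to 133 CPM in the intact pools. PRL was the 1 of 9 tested members with both THX pools above all intact pools (11% of all tested genes), although 9 of 9 had a difference above 0. No pituitary marker passed the test. TSHB, the beta subunit of thyrotropin, had 24 and 30 raw counts under short days, 15 and 863 under long days, and 934 and 128 after thyroidectomy, so pools of 1 group differed widely. Oligodendrocyte markers summed to 133 CPM in both THX pools and 136 to 151 CPM in the intact pools, with none changed. Neuron markers summed to 340 to 346 CPM in the THX pools and 301 to 325 CPM in the intact pools, with none changed. Its 12 tested members were split, with 6 differences above 0 and 6 below and a median of −0.012. Of these members 2 had both THX pools above all intact pools and 3 had both below. Markers of pineal and photoreceptor cells summed to 112 to 118 CPM in the THX pools and 119 to 146 CPM in the intact pools. The nearest pools were THX pool 2 at 117.7 CPM and Short pool 2 at 119 CPM, where ARR3 itself read 0.17 and 1.93 CPM. ARR3 fell and was the 1 of 10 tested members with both THX pools below all intact pools, which holds for 11.3% of all tested genes. Of the 10, 4 had a difference above 0 and 6 below. The part of these other tissues in the changes of single genes was not tested.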

How the data were processed

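PolyA RNA of choroid plexus from 6 pools of ewes was sequenced from a stranded library kit, per the labels' protocols. The submitters' processing notes name featureCounts 2.0.0 and TopHat2 2.1.1, besides SAMtools 1.9, bcl2fastq 2.20, MultiQC 1.9 and FastQC 0.11.8. The values the authors deposited are raw counts per gene, not normalised. The strand setting of counting, the annotation and the genome build were not given in the sources used here. Reads of overlapping or antisense genes may therefore be shared, as may those of near-identical copies. Pools were matched to groups by their titles, and each pool was treated as 1 replicate.

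Counts of 33609 listed genes were analysed in R 4.3.3 with edgeR 4.0.16 (TMM scaling, filterByExpr with a minimum count of 10, quasi-likelihood test, 18019 genes kept). All 6 pools entered 1 model of 3 groups, with THX minus the mean of Short and Long as the contrast and Benjamini-Hochberg adjustment at 0.05. Total counts of 48282883 to 82100653 per pool leave the spread between pools, not counting error, as the main limit on precision. Alternatives used limma 3.58.1 (voom), DESeq2 1.42.0, other scalings, filters, thresholds, intact sides and a replicate block, and left out each pool in turn. The statistics were tested on simulated data. Symbols came from the deposited file, and 471 identifiers without one were named from a RefSeq gene table (assembly ARS-UI_Ramb_v3.0, names only).

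Named genes were the 15 largest increases and 15 largest decreases among changed genes with a symbol, a mean of at least 2 CPM and both THX pools outside the intact range. Added to these were the 6 most abundant changed genes per direction, from each list described at most 4 genes of lowest p, the genes most and least even over day length, and HR, KLF9, THRA, THRB, DIO1, DIO2, DIO3 and TTR. Other changed members of a list are named with its count, and 1 gene that the rule names is not reported here. The members, the lists and the rule were chosen with earlier results of these data known, so list counts and medians are descriptions and no list was tested. No sequence or coordinate is printed.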

Additional observations from a re-analysis of the deposited data

Results flagged for a closer look

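Of 128 series of 4 intact pools examined for a single pool far from the other 3 (gap over range above 0.829, which chance exceeds in about 1 in 20 groups), 2 met the limit, both for Long pool 2. APOD, the gene of apolipoprotein D, read 247 CPM in Long pool 2 against 191 to 201 CPM in the other intact pools (gap over range 0.833), and APOD did not pass the test of THX against intact. Summed red blood cell markers read 54.1 CPM in Long pool 2 against 0.518 to 1.84 CPM in the other intact pools (0.975). Long pool 2 is also the pool without which the fewest genes, 10, passed the test. The part of red blood cell RNA in any result was not tested.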

How the results depend on the processing

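The direction of all 174 changed genes held under each alternative that tested them. Their separation from all intact pools made this nearly certain, so it is no measure of robustness. The median of all genes moved by at most 0.0038 with another scaling and 0.0068 with any alternative. The number of changed genes did not hold. It stayed within 1.5 times of 174 (61 up, 113 down) with DESeq2 size factors (169), upper quartile scaling (165), a mean of at least 5 CPM (191), limma-voom (159), robust estimates (210) and the Short pools alone (165). It was 553 without a filter (247 up, 306 down), 1039 with DESeq2 (509 up, 530 down), 19 at a threshold of 0.01 (3 up, 16 down), 407 at 0.1 (178 up, 229 down), 59 when tested against a fold of 1.2 (16 up, 43 down), 96 with the intact pools as 1 group of 4 (27 up, 69 down) and 51 against the Long pools alone (9 up, 42 down). Without each pool in turn it ranged from 10 to 122 (1 to 57 up, 9 to 65 down), and a THX or intact pair then has a lone pool assumed to vary like the others. Without Short pool 1 and THX pool 2 together, an alternative chosen after seeing the data in which the Long pair alone gives the spread, it was 410 (198 up, 212 down), 124 of them among the 174. The split into 102 up and 162 down with a replicate block made 264 genes. The pool numbers carry no stated pairing. Deviations of same-numbered pools from their group means correlated at −0.052 (Short and Long), 0.19 (Short and THX) and 0.06 (Long and THX). With 2 pools per group these values cannot decide whether same-numbered pools shared a block.

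At a ratio limit of 0.5 in place of 0.25, 144 changed genes were even, and at 0.15, 60 were. Without each pool in turn 80 to 104 of the 174 were even, and 4752 to 10715 genes had the THX pools outside the intact pools, against 4006 with all 6 pools, since fewer pools then have to be separated. Both were added after seeing the data. No called gene turned direction. Among genes that did not pass, the difference turned sign for FCER1A (−2.11 to 0.066 when a pool was left out), THRB (0.11 against the Long pools alone, 0.038 without Short pool 1 and THX pool 2), APOD (−0.010 without those same pools) and DIO1 (−0.092 with voom, −0.13 against Long alone, −0.0034 with the replicate block, and −0.62 to 0.48 when a pool was left out, with −0.016 without Short replicate 2). The cause was not tested. With 2 pools per group, genes that missed the threshold are not shown to be equal. How far depth limits single genes was not tested, and NXNL1 and CDCP2 rest on 0 and 1 counts in the THX pools.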
